A study of Mus musculus with 3 samples.

Results

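The matrix genes *Fn1*, *Has2*, *Vcan*, *Hapln1*, *Cd44*, *Tnc*, *Sparc*, *Nid1*, *Nid2* and *Hspg2* were examined in the germ layers of mouse embryos at embryonic day 7.5 (E7.5). They encode fibronectin, hyaluronan and proteoglycan components, matricellular glycoproteins and nidogens, and were taken by symbol from a fixed list. This list was chosen with earlier results of these data known, so the shares of all genes set beside its counts are descriptions. All 10 were found among the 17633 genes with reads in at least 1 library. The endoderm, the mesoderm and the epiblast, the last of which held the neuroectoderm and the primitive streak, were separated by enzyme treatment and micromanipulation from the embryonic region of ICR embryos after Reichert's membrane had been removed, and each layer was pooled over many embryos into 1 RNA-seq library. The data therefore hold no replicate check of any difference between germ layers, and no p-value is given. The intervals below cover counting error only.

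Germ layers are held apart by basement membranes, thin sheets in which nidogens and the heparan sulfate proteoglycan perlecan (*Hspg2*) are bound to networks of laminin and type IV collagen. Cells that leave the primitive streak move as mesenchyme through a loose interstitial matrix, in which fibronectin fibrils are the substrate for integrins and hyaluronan, made at the cell surface, binds versican (*Vcan*) with the help of link protein (*Hapln1*). Tenascin C (*Tnc*) and *Sparc* encode secreted glycoproteins that modulate how cells hold on to such a matrix.

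The gene reads of the endoderm, mesoderm and epiblast libraries summed to 41.7, 40.8 and 42.7 M. Levels are given as RPKM, reads per kilobase of gene length per M of these reads, which allows different genes to be compared within a library. The 10 genes held 0.271%, 0.369% and 0.0897% of these reads, and their RPKM values summed to 487.1, 520.1 and 147.5, respectively. All 10 endoderm markers, with most reads on *Cubn*, *Apoa1* and *Ttr*, were highest in endoderm, and all 10 mesoderm markers, with most on *Hand1*, *Cdh2* and *Kdr*, in mesoderm. Of 10 epiblast markers, with most on *Dnmt3b*, *Pou5f1* and *Pim2*, 9 were highest in epiblast, with *Fgf5*, a growth factor gene, at 105% of its epiblast level in endoderm. A bulk library cannot tell fewer cells of a type from less RNA per cell.

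The matrix genes were lowest in epiblast in 7 cases and in endoderm in 3 cases, and none was lowest in mesoderm. In the other direction, 7 were highest in mesoderm, 3 in endoderm and 0 in epiblast. Those highest in mesoderm were *Fn1*, *Has2*, *Vcan*, *Hapln1*, *Cd44*, *Tnc* and *Hspg2*. Those highest in endoderm were the basement membrane genes *Nid1* and *Nid2* and the matricellular gene *Sparc*.

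**Figure D1:**
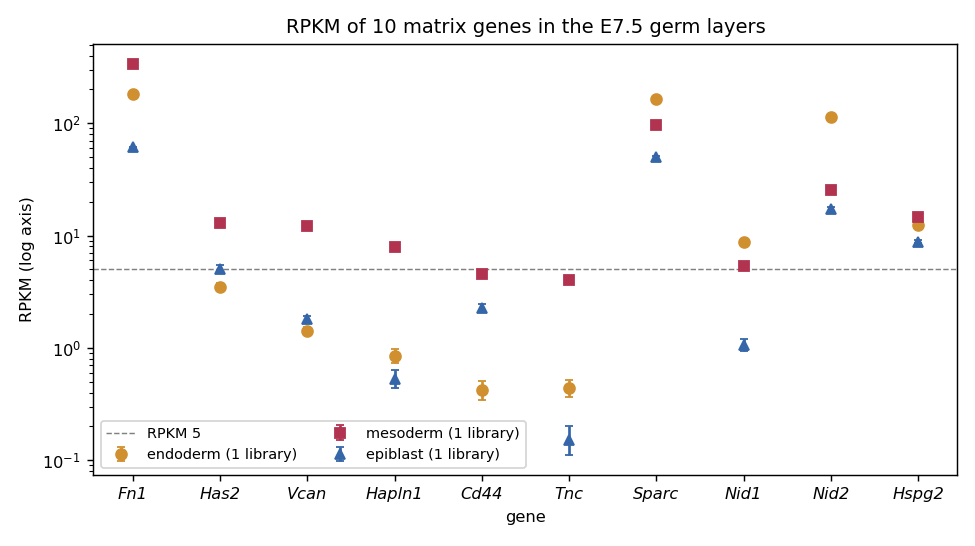
RPKM (log axis) of each gene in the endoderm, mesoderm and epiblast library, 1 library per germ layer, with bars for the exact 95% Poisson interval of the reads. *Fn1*, *Sparc* and *Nid2* were at RPKM 17.2 or above in all 3 libraries, and *Vcan*, *Hapln1*, *Cd44* and *Tnc* were below RPKM 5 in both endoderm and epiblast.

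A gene was called different between a pair of libraries when its RPKM was above 5 in at least 1 of them and the ratio of the RPKM values was above 2, which are the level and fold criteria of the study. Of the 10 genes, 8 reached RPKM 5 in some library, and *Cd44* and *Tnc* did not. A gene that is above RPKM 5 in its higher library alone enters the call through that library, so the counts among genes that passed are descriptions. Each layer enters 2 of the 3 pairs, so the pairs share libraries.

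Between endoderm and mesoderm 4 of the 8 genes past the RPKM criterion were called, against a background of 23.0% of 8867 genes. *Has2*, *Vcan* and *Hapln1* were higher in mesoderm, the direction of 8.57% of all genes tested. *Nid2* was higher in endoderm, the direction of 14.4%. The median log2 ratio of endoderm over mesoderm was -0.56 over the 8 matrix genes past the RPKM criterion and -0.10 over all genes past it. With *Cd44* and *Tnc*, which did not pass, the median of the 10 was -1.39.

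Between endoderm and epiblast 4 of 6 were called, against 24.6% of 8843 genes. These were *Fn1*, *Sparc*, *Nid1* and *Nid2*, each higher in endoderm, the direction of 15.7% of all genes. None was called higher in epiblast, where 8.94% of all genes were. The median log2 ratio of endoderm over epiblast was 1.65 over the 6 genes past the RPKM criterion and -0.08 over all genes past it, and the median of the 10 was 1.10.

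Mesoderm and epiblast differed in fewer genes as a whole, with 10.3% of 8340 genes called, and 5 of 8 matrix genes were called. *Fn1*, *Has2*, *Vcan*, *Hapln1* and *Nid1* were higher in mesoderm, the direction of 5.31% of all genes. None was called higher in epiblast, the direction of 5.02%. The median log2 ratio of mesoderm over epiblast was 1.84 over the 8 genes past the RPKM criterion and 0.02 over all genes past it, and the median of the 10 was also 1.84.

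**Figure D2:**
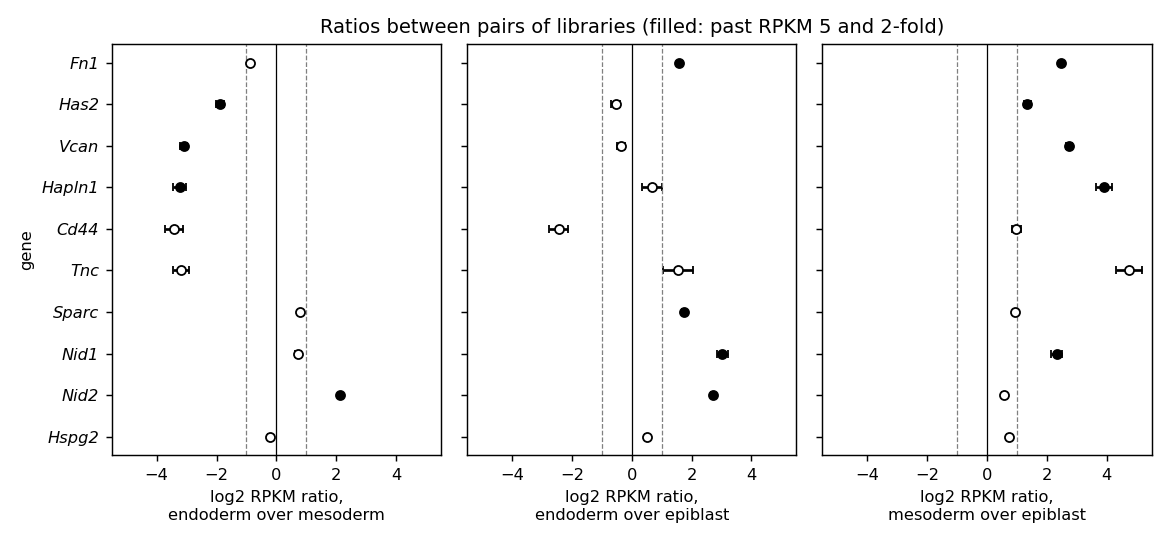
The log2 RPKM ratio of each gene in the 3 pairs of libraries, with bars for the exact 95% interval of the read ratio, filled where the gene was called and with dashed lines at a 2-fold ratio. All 10 points of the mesoderm over epiblast panel lie to the right of 0, while the endoderm over mesoderm panel has *Sparc*, *Nid1* and *Nid2* on the endoderm side and the other 7 genes on the mesoderm side.

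*Fn1* encodes fibronectin, the glycoprotein of the fibrils on which mesoderm cells spread and move. It had 62734 reads (RPKM 181.2) in endoderm compared with 114467 reads (337.1) in mesoderm and 21618 reads (60.9) in epiblast. It ranked 193rd by RPKM in the mesoderm library, 390th in endoderm and 1262nd in epiblast. *Fn1* was therefore abundant in every layer, with the mesoderm on top. The ratio of mesoderm over epiblast was 5.54 (95% interval 5.46 to 5.62) and that of endoderm over epiblast 2.98 (2.93 to 3.02), and both were called. The ratio of mesoderm over endoderm, 1.86 (1.84 to 1.88), stayed under the fold criterion. Reads covered at least 99.62% of the gene length in each library.

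*Has2* encodes the hyaluronan synthase of the early embryo, an enzyme of the cell membrane that extrudes the sugar chain as it is made. *Has2* had 621 reads (RPKM 3.50) in endoderm against 2254 (12.9) in mesoderm and 924 (5.08) in epiblast. The mesoderm level was 3.70 times that of endoderm (3.38 to 4.05) and 2.55 times that of epiblast (2.36 to 2.76), and both differences were called. Epiblast was 1.45 times endoderm (1.31 to 1.61), which was not called. *Has1*, the gene of a second synthase, was listed in no library and was taken to have 0 reads, where up to 3 reads would be within a count of 0. *Has3*, the gene of another synthase, was highest in epiblast, at RPKM 0.130 in endoderm against 0.104 in mesoderm and 0.626 in epiblast.

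*Vcan* encodes versican, a large chondroitin sulfate proteoglycan that binds hyaluronan. It had 735 reads (RPKM 1.42) in endoderm compared with 6190 (12.2) in mesoderm and 966 (1.82) in epiblast. Mesoderm stood apart from both other layers, at 8.59 times endoderm (7.95 to 9.28) and 6.70 times epiblast (6.26 to 7.18). The ratio of epiblast over endoderm was 1.28 (1.16 to 1.41), with both levels below RPKM 5.

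*Hapln1* encodes the link protein that locks versican onto hyaluronan. It had 179 reads (RPKM 0.850) in endoderm against 1650 (7.99) in mesoderm and 115 (0.533) in epiblast. Its mesoderm level was 9.40 times that of endoderm (8.05 to 11.0) and 15.0 times that of epiblast (12.4 to 18.3), the widest ratio among the called ones. *Vcan* and *Hapln1* lie next to each other on chromosome 13 of GRCm38, at 89655312-89742509 on the minus strand and 89539796-89611652 on the plus strand. Their 3′ ends face each other across 43.7 kb in which the GENCODE M21 annotation holds no gene. Within a library, the ratio of *Vcan* to *Hapln1* RPKM was 1.67 in endoderm compared with 1.53 in mesoderm and 3.42 in epiblast.

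*Cd44* encodes the main cell surface receptor for hyaluronan. It had 99 reads (RPKM 0.420) in endoderm against 1040 (4.50) in mesoderm and 551 (2.28) in epiblast. Mesoderm was 10.7 times endoderm (8.71 to 13.3) and 1.97 times epiblast (1.78 to 2.19), and epiblast was 5.43 times endoderm (4.38 to 6.79). No level reached RPKM 5, so none of these ratios could be called. The synthase thus had a higher RPKM than the receptor in every library, with a *Has2* to *Cd44* ratio of 8.32 in endoderm compared with 2.88 in mesoderm and 2.22 in epiblast.

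*Tnc* encodes tenascin C, which counteracts cell spreading on fibronectin. It was the least abundant of the 10 genes in mesoderm and in epiblast, with 130 reads (RPKM 0.440) in endoderm against 1170 (4.03) in mesoderm and 46 (0.152) in epiblast. Mesoderm was 9.18 times endoderm (7.65 to 11.1) and 26.6 times epiblast (19.8 to 36.5), and endoderm was 2.90 times epiblast (2.06 to 4.15). By the ratio of upper to lower end, the intervals against epiblast are the widest of the set, and no *Tnc* level passed the RPKM criterion.

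RNA of the 4 genes *Vcan*, *Hapln1*, *Cd44* and *Tnc* was thus found in endoderm at 11.6%, 10.6%, 9.34% and 10.9% of the mesoderm RPKM. For comparison, the summed RPKM of the 10 mesoderm markers in endoderm was 6.84% of that in mesoderm. Single markers ranged from 0.451% for *Hand1*, a transcription factor gene of lateral and extraembryonic mesoderm, to 75.9% for *Gata2*, a blood progenitor factor gene. *Kdr*, the VEGF receptor gene of early mesoderm, was at 0.668%, and *Cdh2*, N-cadherin, at 26.9%. In epiblast the mesoderm markers summed to 24.5% of their mesoderm level. The part of mesoderm cells in these endoderm and epiblast values was not tested.

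The promoters of *Vcan*, *Tnc* and *Cd44* are shown because these mesoderm-high genes were low in endoderm and their windows used here hold no annotated exon. The RefSeq promoter table of GRCm38.p6 matched 7 of the 10 genes, with *Fn1*, *Has2* and *Nid2* unmatched, and gave *Tnc* 2 start sites. The window of the upstream *Tnc* site is printed, and that of the other, at position 64046936, overlaps an exon over 79 bases. The 250 bases before the start site lie at chr13:89742513-89742762 for *Vcan*, chr4:64047016-64047265 for *Tnc* and chr2:102901666-102901915 for *Cd44*, all on the minus strand, and are written 5′ to 3′ in the direction of the gene. Capitals mark matches to any of 5 motifs on either strand: TATAA (TATA box), GGGCGG (GC box), GATAA (GATA motif), GGAATG (TEAD motif) and CAGGTG (an E box).
Vcan: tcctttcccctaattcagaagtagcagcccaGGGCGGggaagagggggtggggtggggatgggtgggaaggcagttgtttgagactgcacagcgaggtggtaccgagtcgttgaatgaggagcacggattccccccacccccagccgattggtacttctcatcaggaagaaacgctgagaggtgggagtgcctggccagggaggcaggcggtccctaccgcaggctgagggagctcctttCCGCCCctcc
Tnc: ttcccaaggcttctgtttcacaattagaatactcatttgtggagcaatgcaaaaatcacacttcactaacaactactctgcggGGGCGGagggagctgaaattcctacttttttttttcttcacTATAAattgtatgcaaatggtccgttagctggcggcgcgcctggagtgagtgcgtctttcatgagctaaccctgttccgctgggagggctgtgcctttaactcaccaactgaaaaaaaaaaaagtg
Cd44: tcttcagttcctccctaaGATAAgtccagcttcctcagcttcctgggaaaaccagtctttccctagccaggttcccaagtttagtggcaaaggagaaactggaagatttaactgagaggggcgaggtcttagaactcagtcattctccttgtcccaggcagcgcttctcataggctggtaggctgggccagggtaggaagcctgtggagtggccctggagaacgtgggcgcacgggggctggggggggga
The GC box was matched 219 and 10 bases before the *Vcan* start and 167 bases before that of *Tnc*, and 32.7% of all 32851 windows of this length hold it. *Tnc* also had a TATAA 126 bases before the upstream start, and the window of its other start had this match 205 bases and a further TATAA 27 bases before that start. TATAA was present in 22.8% of windows. *Cd44* had a GATAA 232 bases before its start, present in 22.6%. No motif was shared by all 3 windows. The TEAD motif and the E box, held by 12.6% and 17.2% of windows, were not among the letters of these 3 windows. A match is a description of the sequence and no binding site. The bases were 62.4% G or C for *Vcan*, 44.8% for *Tnc* and 56.4% for *Cd44*, beside a median of 52.4% over all windows.

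*Sparc* encodes a collagen-binding glycoprotein that is abundant in basement membranes. It had 15840 reads (RPKM 165.4) in endoderm compared with 8997 (95.8) in mesoderm and 4873 (49.6) in epiblast. Endoderm was 3.33 times epiblast (3.23 to 3.44), which was called. The steps between neighbours in the order were smaller, with endoderm 1.73 times mesoderm (1.68 to 1.77) and mesoderm 1.93 times epiblast (1.86 to 1.999), and neither was called.

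*Nid1* and *Nid2* encode nidogens, which link the laminin network to type IV collagen and perlecan. *Nid1* had 2194 reads (RPKM 8.71) in endoderm against 1319 (5.34) in mesoderm and 275 (1.07) in epiblast. It was 8.18 times higher in endoderm than in epiblast (7.21 to 9.31) and 5.01 times higher in mesoderm than in epiblast (4.40 to 5.73), both called. Endoderm over mesoderm was 1.63 (1.52 to 1.75), which was not called.

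*Nid2* had 23063 reads (RPKM 112.7) in endoderm compared with 5139 (25.6) in mesoderm and 3609 (17.2) in epiblast. It was 4.40 times higher in endoderm than in mesoderm (4.27 to 4.54) and 6.55 times higher than in epiblast (6.33 to 6.79), both called. Mesoderm over epiblast was 1.49 (1.43 to 1.55). By these calls the nidogens divided the layers differently, *Nid1* being low in epiblast alone and *Nid2* high in endoderm alone. *Nid2* was the more abundant of the pair throughout, with a *Nid2* to *Nid1* RPKM ratio of 12.9 in endoderm against 4.79 in mesoderm and 16.2 in epiblast. Exons of *Nid2* overlap over 437 bases with exons of *Rtraf* on the other strand, which had 11519, 10785 and 13387 reads in endoderm, mesoderm and epiblast, and whether the counting used strand is not given in the sources used here. Reads in the shared bases were not analysed here, and their part in the *Nid2* values was not tested.

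*Hspg2* encodes perlecan, the large heparan sulfate proteoglycan of basement membranes. It was the most even of the 10 genes, with 7383 reads (RPKM 12.5) in endoderm compared with 8479 (14.6) in mesoderm and 5342 (8.81) in epiblast. No ratio was called, and the widest, mesoderm over epiblast, was 1.66 (1.60 to 1.72). Mesoderm over endoderm was 1.17 (1.13 to 1.21) and endoderm over epiblast 1.42 (1.37 to 1.47). All 30 intervals of the 10 genes in 3 pairs lay on 1 side of equal levels, but how far such ratios vary between libraries of the same layer is not known from these data.

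The make-up of the set differed between the layers. *Fn1* gave 64.8% of the summed RPKM of the 10 genes in mesoderm, 37.2% in endoderm and 41.3% in epiblast. *Sparc* gave 18.4%, 34.0% and 33.7% in the same order, and *Nid2* 4.92%, 23.1% and 11.7%. The endoderm set was thus shared among *Fn1*, *Sparc* and *Nid2*, while most of the mesoderm sum was *Fn1*. The ratio of *Fn1* to *Sparc* was 3.52 in mesoderm, 1.10 in endoderm and 1.23 in epiblast. Relative to *Hspg2*, *Nid2* stood at 9.03 in endoderm against 1.75 in mesoderm and 1.95 in epiblast.

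**Figure D3:**
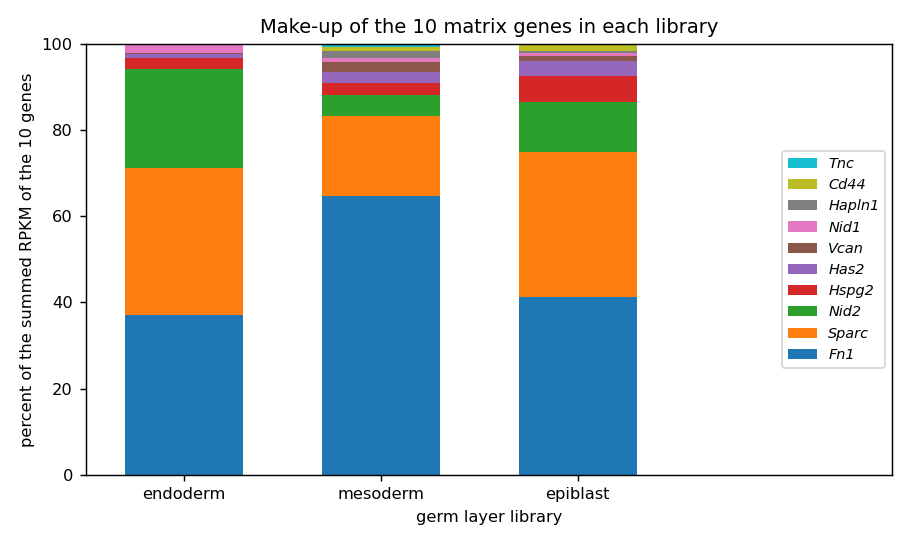
Stacked bars of each gene's percent of the summed RPKM of the 10 genes, 1 bar per germ layer library. *Fn1* fills 64.8% of the mesoderm bar, and *Nid2* fills 23.1% of the endoderm bar.

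Cell types that could carry matrix RNA were examined through their markers. Visceral endoderm markers had most reads on *Apob*, *Cubn* and *Apoa1*, genes of lipoprotein transport and uptake. The 8 markers summed to RPKM 6340 in endoderm compared with 9.09 in mesoderm and 6.82 in epiblast. Of them, *Afp*, *Ttr*, *Apoa1*, *Amn* and *Cubn* were also among the endoderm markers above. The part of visceral endoderm in the endoderm values of the matrix genes was not tested. Parietal endoderm, which builds Reichert's membrane and is rich in *Sparc* and nidogens, was represented by 8 markers that summed to RPKM 133.7 in endoderm against 73.5 in mesoderm and 61.0 in epiblast. The list was split, with 4 markers highest in endoderm, 2 in mesoderm and 1 in epiblast. *Krt19*, a keratin gene, was at RPKM 50.02, 6.83 and 3.43, *Pth1r*, a hormone receptor gene, at 38.8, 23.5 and 2.49, and *Fst*, an activin antagonist gene, at 2.35, 14.5 and 50.7, while *Gkn2* had 0 reads in all libraries. *Stra6*, a retinol transport gene, was highest in mesoderm at RPKM 3.61, 21.0 and 3.03, as was *Thbd*, thrombomodulin, at 0.149, 1.61 and 0.107. *Pga5*, at RPKM 25.7, 0.0346 and 0.0992, and *Plat*, at 13.1, 5.95 and 1.14, were highest in endoderm. The part of parietal endoderm in the *Sparc*, *Nid1* and *Nid2* values was not tested.

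Trophoblast markers summed to RPKM 27.4 in endoderm compared with 7.56 in mesoderm and 2.65 in epiblast, and 2 of the 7 carried the sum. *Plac1*, a placental gene, was at RPKM 19.9, 6.25 and 0.569 and *Esx1*, a homeobox gene of the trophoblast, at 7.11, 0.0606 and 0.130, and both were called higher in endoderm than in mesoderm, by 3.18 and 117 times, and than in epiblast. *Ascl2*, a trophoblast transcription factor gene, was at RPKM 0.268, 1.12 and 1.63, and *Tpbpa*, *Prl3d1* and *Prl2c2* were at 0 reads. *Elf5*, also on this list, was at RPKM 0.108, 0.133 and 0.328, so that it and *Ascl2* were highest in epiblast. *Plac1* and *Esx1* were highest in endoderm, as *Sparc*, *Nid1* and *Nid2* were. *Plac1* was lowest in epiblast, as those genes were, but *Esx1* was lowest in mesoderm. The part of trophoblast in the *Sparc*, *Nid1* and *Nid2* values was not tested.

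Decidua markers summed to no more than RPKM 8.23 in any library. *Des*, desmin, was at RPKM 0.311, 4.95 and 2.71, *Cryab*, a small heat shock gene, at 0.547, 2.33 and 0.672, and *Pgr*, the progesterone receptor gene, at 0.335, 0.7995 and 1.22, while *Prl8a2* and *Prl3c1*, prolactin family genes of the decidua, had 0 reads. Primitive erythroid markers reached a sum of RPKM 4.44 at most. The embryonic globins *Hba-x* and *Hbb-y* were listed in no library and were taken to have 0 reads. *Hbb-bh1*, another, had 37 reads in mesoderm and 0 in both other libraries. *Gata1*, the erythroid factor gene, was at RPKM 3.27, 2.49 and 0.661, and *Klf1*, of the same lineage, at 0.125, 0.463 and 0.244. All 6 endothelial markers were highest in mesoderm, and their sums were RPKM 11.6, 28.1 and 15.8, with *Egfl7* at 11.0, 21.7 and 15.1, *Tek* at 0.0310, 2.20 and 0.453 and *Pecam1* at 0.349, 2.53 and 0.262.

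The genes that make the precursors of hyaluronan were placed beside *Has2*. Counts of calls in the wider lists are over the genes past the RPKM criterion in that pair. Of 7 other genes of hyaluronan synthesis, 5 passed it, and 0 of these 5 were called between endoderm and mesoderm, where 23.0% of all genes were. Between endoderm and epiblast 3 of 5 were called, all higher in endoderm (15.7% of all genes). *Gfpt1* and *Gfpt2*, whose enzymes start the hexosamine pathway, and *Ugp2*, of UDP-glucose synthesis, were higher in endoderm than in epiblast, by 3.29, 3.36 and 2.74 times. *Gfpt2* was also 2.54 times higher in mesoderm than in epiblast. *Ugdh*, which makes UDP-glucuronic acid, had RPKM 36.6, 40.7 and 29.7 in endoderm, mesoderm and epiblast and was not called.

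Of 19 other genes of hyaluronan breakdown and binding, 4 passed the RPKM criterion between endoderm and mesoderm and 1 of these, *Ambp*, was called, beside 23.0% of all genes. It encodes the precursor of bikunin, a chain of the serum inhibitors whose heavy chains are passed on to hyaluronan, and had RPKM 22.0 in endoderm with 0 reads in mesoderm, at least 369-fold higher. *Hyal2*, a hyaluronidase gene, was at RPKM 43.9, 40.0 and 41.5 in endoderm, mesoderm and epiblast, and *Hmmr*, a hyaluronan-binding gene that is also used in mitosis, at 33.0, 35.3 and 26.0. Of 9 other lecticans and versican-cutting proteases, 1 passed the RPKM criterion in the pairs with mesoderm. This was *Adamts9*, a protease gene, which was called. It passed by its mesoderm level alone, at RPKM 1.33 in endoderm against 5.67 in mesoderm and 2.56 in epiblast. It was 4.25 times higher in mesoderm than in endoderm and 2.21 times higher than in epiblast. *Adamts15*, a related protease gene, was at RPKM 3.67, 0.741 and 2.54 and did not pass.

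Of 9 genes for integrin subunits that bind fibronectin, 4 passed the RPKM criterion between endoderm and mesoderm, with 1 called, beside 23.0% of all genes. Between endoderm and epiblast 4 passed it, with 3 called, beside 24.6% of all genes. *Itgb5* was lower in endoderm than in both other layers, with RPKM 10.4, 36.1 and 24.7 in endoderm, mesoderm and epiblast. *Itga5*, whose product with that of *Itgb1* forms the main fibronectin receptor, was higher in endoderm (2.77 times) and mesoderm (2.15 times) than in epiblast, the layer in which *Fn1* was lowest. *Itgav* was 2.33 times higher in endoderm than in epiblast. *Itgb1* itself was at RPKM 71.4, 62.4 and 37.7 and was not called, and *Itgb6* had no reads.

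Of 7 other genes of the SPARC family, 2 passed the RPKM criterion between endoderm and mesoderm and 3 in each pair with epiblast. In every pair 2 were called. Among all genes tested, 23.0% were called in the pair without epiblast. Against epiblast the share was 24.6% for endoderm and 10.3% for mesoderm. *Smoc1*, of basement membranes, was ordered as *Sparc* was, with RPKM 29.1, 11.1 and 4.55 in endoderm, mesoderm and epiblast and all 3 pairs called. *Fstl1*, a secreted follistatin-like gene, was 2.77 times higher in mesoderm than in endoderm. *Spock2*, a proteoglycan gene, was 6.04 times higher in epiblast than in endoderm and 5.90 times higher than in mesoderm. None of the other tenascins, with most reads per length on *Tnxb* and *Tnr*, and none of 8 small leucine-rich proteoglycans, led by *Bgn*, *Dcn* and *Prelp*, reached RPKM 5.

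Of 9 other basement membrane partners, 8 passed the RPKM criterion in each pair. Of these 8, 4 were called higher in endoderm than in mesoderm (14.4% of all genes) and 0 lower (8.57%), namely *Agrn*, *Col4a1*, *Col4a2* and *Col18a1*. Against epiblast 5 of 8 were higher in endoderm (15.7% of all genes), which were *Col4a1*, *Col4a2*, *Agrn*, *Lama1* and *Lamb1*. *Col4a2*, a chain of type IV collagen, was at RPKM 79.9, 23.6 and 7.24 and *Col4a1* at 160.4, 54.4 and 20.6 in endoderm, mesoderm and epiblast. *Agrn*, the heparan sulfate proteoglycan agrin, was at RPKM 83.6 in endoderm compared with 22.3 in mesoderm and 26.7 in epiblast. It was thus high in endoderm alone, as *Nid2* was. *Hspg2*, with the same kind of sugar chains, was not called in any pair. *Lama1*, a laminin chain, was low in epiblast alone (RPKM 17.2, 18.3 and 3.09), as *Nid1* was. *Lama1*, *Col4a1* and *Col4a2* were called higher in mesoderm than in epiblast, and *Col18a1* lower.

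**Figure D4:**
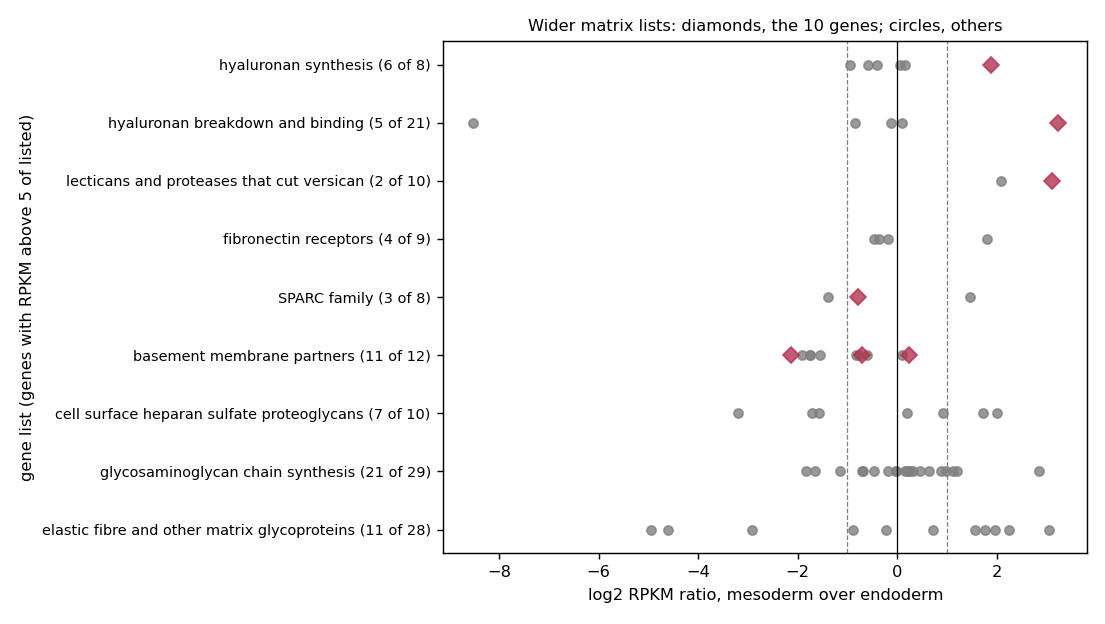
The log2 RPKM ratio of mesoderm over endoderm for the genes of each wider matrix list with RPKM above 5 in either library (red diamonds, the 10 genes; grey circles, other genes), with dashed lines at a 2-fold ratio. *Has2*, *Vcan* and *Hapln1* lie on the mesoderm side, past the 2-fold line, and *Nid2* lies with *Agrn* and the collagen genes on the endoderm side.

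The cell surface heparan sulfate proteoglycans were divided between the layers. Of 10 genes, 7 passed the RPKM criterion, of which 3 were called higher in endoderm than in mesoderm (*Gpc3*, *Gpc4* and *Sdc4*), beside 14.4% of all genes, and 2 lower (*Gpc1* and *Sdc1*), beside 8.57%. *Gpc3*, a glypican, had RPKM 763.7 in endoderm against 255.5 in mesoderm and 80.0 in epiblast, above *Fn1* in endoderm. *Sdc1*, a syndecan, was at RPKM 8.72, 28.8 and 33.0 and *Gpc1* at 8.10, 32.4 and 29.6. *Sdc2* was 2.23 times lower in endoderm than in epiblast.

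Of 29 genes for the synthesis and editing of glycosaminoglycan chains, 21 passed the RPKM criterion between endoderm and mesoderm. Of these, 3 were called higher in endoderm (*Sulf2*, *Chst15* and *Hs6st1*) and 3 higher in mesoderm (*Hs6st2*, *Sulf1* and *Chsy1*), so that 6 of 21 were called in all, near the 23.0% of all genes. *Sulf1* and *Sulf2*, whose enzymes both remove sulfate from heparan sulfate, went in opposite directions, with *Sulf1* at RPKM 17.8 in endoderm and 38.8 in mesoderm and *Sulf2* at 67.3 and 21.3. *Chsy1*, a chondroitin synthase gene, was 2.29 times higher in mesoderm than in endoderm, and *Chst15* was 3.54 times higher in endoderm than in mesoderm. *Ext2*, *Sulf2* and *Chst15* were called higher in endoderm than in epiblast, *Chst14* was higher in mesoderm than in epiblast, and *Hs6st1* was higher in epiblast than in mesoderm.

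Of 28 elastic fibre and other matrix glycoprotein genes, 11 passed the RPKM criterion between endoderm and mesoderm. Of these, 3 were called higher in endoderm (*Vtn*, *Fras1* and *Frem2*), beside 14.4% of all genes, and 5 higher in mesoderm (*Fbn2*, *Fbln2*, *Mfap2*, *Thbs3* and *Tgfbi*), beside 8.57%. *Vtn*, vitronectin, was 31.0 times and *Fras1*, of epithelial basement membranes, 24.3 times higher in endoderm than in mesoderm. *Fbn2*, a fibrillin, was at RPKM 2.62, 10.1 and 0.565 in endoderm, mesoderm and epiblast, an order like that of *Hapln1*. *Fbln1*, a fibulin that binds fibronectin and nidogen, had RPKM 61.9, 52.7 and 19.8 and was called higher in endoderm and in mesoderm than in epiblast. *Mfap2*, a microfibril gene, was at 5.12, 17.3 and 21.1, and *Efemp2*, another fibulin, at 15.0, 24.7 and 14.2, and *Efemp2* was called in no pair.

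For each gene above RPKM 5 the genes with the most similar shares of RPKM over the 3 libraries were named, among 9134 genes, as a description over 3 values. The nearest to *Fn1* was *Dusp9*, with RPKM 96.5 in endoderm compared with 177.1 in mesoderm and 31.7 in epiblast, followed by *Irx1*. For *Vcan* they were *Rbm24* and *Dok4*, for *Hapln1* *Meis1* and *Tbx1*, and for *Has2* *Efna3* and *Anxa11*. For the genes highest in endoderm they were *Klf10* and *Gcnt1* (*Sparc*), *Tead4* and *Phlda1* (*Nid1*), and *Zfp36* and *Arfgap3* (*Nid2*). The number of genes within a distance of 0.05 in these shares ran from 7 for *Hapln1* and 8 for *Fn1* to 64 for *Sparc* and 185 for *Hspg2*, whose nearest were *Mob1a* and *Fhdc1*.

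The share of the gene length that reads covered was ordered over the libraries as the RPKM was in 6 of the 10 genes. *Tnc* was covered over 65.2% in endoderm against 97.4% in mesoderm and 40.6% in epiblast, and *Hapln1* over 84.4%, 99.2% and 71.7%. In *Fn1*, *Vcan* and *Hspg2* a library with the higher level was covered less by at most 1.24 points. The gap was 3.86 points in *Cd44*, with 69.5% in endoderm compared with 83.7% in mesoderm and 87.6% in epiblast, although its reads were more numerous in mesoderm than in epiblast. In mesoderm this coverage was above that of 11.0% of the 400 genes nearest in RPKM, whose median was 95.1%, and in epiblast above that of 29.8%, with a median of 92.8%. Among 609 genes with RPKM 1 to 5 in epiblast and a ratio of mesoderm over epiblast above 1.5, 119 (19.5%) were covered less in mesoderm, and 20 (3.28%) by as much as *Cd44*. This comparison was chosen after the values were seen. *Cd44* is known for variable exons, but reads by exon were not analysed here, and their part in the coverage was not tested.

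**Figure D5:**
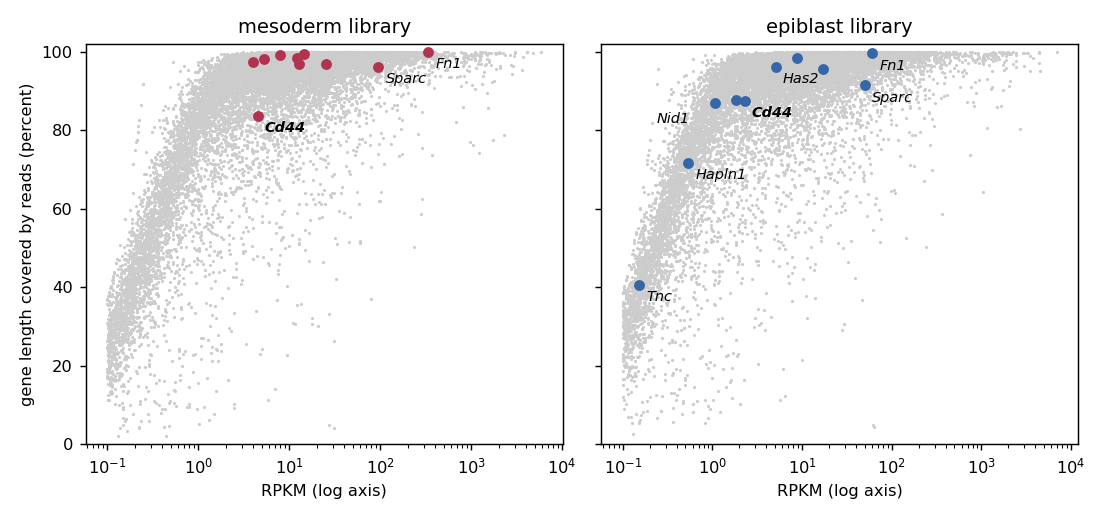
Percent of the gene length covered by reads against RPKM (log axis) for genes above RPKM 0.1 in the mesoderm and the epiblast library, with the 10 genes as large points. *Cd44* lies at 83.7% in mesoderm, below the other 9 genes, and at 87.6% in epiblast.

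In GRCm38 the other genes lie on chromosome 1 at 71585520-71653200 (*Fn1*), chromosome 15 at 56665627-56694539 (*Has2*), chromosome 2 at 102811141-102901665 (*Cd44*), chromosome 4 at 63959785-64047015 (*Tnc*) and 137468769-137570630 (*Hspg2*), chromosome 11 at 55394500-55423183 (*Sparc*), chromosome 13 at 13437551-13512269 (*Nid1*) and chromosome 14 at 19751265-19811787 (*Nid2*). *Fn1*, *Has2*, *Tnc* and *Nid1* also share exon bases with an annotated gene on the other strand. Those listed with reads were *Apol7d* at *Fn1*, with at most 15 reads in a library, and the *Has2* antisense RNA, with at most 5.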

How the data were processed

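RNA of the E7.5 mouse endoderm, mesoderm and epiblast of pooled embryos was made into 1 library for each layer and sequenced paired-end (Illumina HiSeq). For each gene with a read, the authors deposited the count of uniquely mapped reads, not normalized, the gene length, the coverage as a percentage of that length and the RPKM. The deposited RPKM was recomputed from the count, the length and the summed counts with a largest relative difference of 2.03e-07. The submitters' processing notes name TopHat, mm10 and mm9 without their roles, and the counting program and annotation are not given in the sources used here.

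Genes not listed in a library were taken to have 0 reads. For a gene listed in no library, 0 reads could not be told from absence from the annotation used for counting. Among the genes named above these were *Has1*, *Itgb6*, *Gkn2*, *Tpbpa*, *Prl3d1*, *Prl2c2*, *Prl8a2*, *Prl3c1*, *Hba-x* and *Hbb-y*. A gene was called between 2 libraries when its RPKM was above 5 in at least 1 and the RPKM ratio above 2. Replicates, which the quasi-likelihood test of edgeR needs, were lacking, and edgeR 4.0.16 (R 4.3.3) was used for TMM factors alone. Intervals of reads are exact Poisson and those of ratios exact binomial (Clopper-Pearson, conditional on the summed reads), at 95%. The study's FDR<0.001, by the Audic-Claverie exact test on the counts, was an alternative, as were RPKM>1, RPKM>10, no RPKM criterion, ratios above 1.5 or 4, a pseudocount of 1, the counting interval and 4 other scalings. The calls and intervals were tested on simulated data, which cannot show how far libraries of the same layer vary.

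The 10 genes and the wider and marker lists (213 distinct genes, 2 matched through a synonym) were chosen with earlier results of these data known. Named from each wider list were the 3 genes with the highest RPKM and the 3 with the largest fold among those called, from each marker list the 3 with the most reads and those with 0 reads in all libraries, and for each of the 10 genes above RPKM 5 the 2 nearest genes by Euclidean distance. Other named genes of these lists, the single markers set beside *Vcan*, the motifs and the *Cd44* coverage comparison were chosen after their values were seen. Gene positions are from GENCODE M21, and promoters from RefSeq. The microarray, qPCR and splicing data of the study were not analysed here. Values were computed with numpy 2.4.6, pandas 2.3.3 and SciPy 1.17.1 under Python 3.11.15 and drawn with matplotlib 3.10.9.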

Additional observations from a re-analysis of the deposited data

How the results depend on the processing

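No paired analysis was possible because each germ layer is 1 library, and leaving out a replicate was impossible for the same reason, so the spread between libraries of a layer is unknown and counting error is the only error given. With ratios above 1.5, 7 of the 10 genes were called between endoderm and mesoderm, adding *Fn1*, *Sparc* and *Nid1*, and with ratios above 4, 2 were called between endoderm and epiblast, without *Fn1* and *Sparc*. With RPKM>10, 3 were called between mesoderm and epiblast, without *Hapln1* and *Nid1*. RPKM>10 also lost *Hapln1* between endoderm and mesoderm and *Nid1* between endoderm and epiblast, and ratios above 4 lost *Has2* between mesoderm and each other layer. *Cd44* and *Tnc* were called with RPKM>1 between endoderm and mesoderm, *Cd44* also between endoderm and epiblast and *Tnc* between mesoderm and epiblast. With no RPKM criterion *Tnc* was called in all 3 pairs. Ratios above 1.5 added *Sparc* and *Hspg2* between mesoderm and epiblast. With the same RPKM total, *Sparc* was called between mesoderm and epiblast at 2.01-fold.

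Over all genes, the calls between endoderm and mesoderm numbered 3400 with RPKM>1, 5684 with no RPKM criterion, 936 with ratios above 4 and 3543 above 1.5. Between endoderm and epiblast they were 3589, 5897, 898 and 3922 under the same settings. Between mesoderm and epiblast they were 1861, 3870, 334 and 1564, and 525 with RPKM>10. The median of ratios shifted log2 ratios of endoderm over mesoderm by 0.11 and of endoderm over epiblast by 0.11, and the same upper quartile by -0.07 and -0.13. Under the 4 scalings 0 of 120 ratios of the 10 genes reversed, and they lay between 0.912 and 1.10 times their reported values. A pseudocount of 1 reversed 0 of 30 and shrank the ratios of low genes, to 0.164 times the reported one in the extreme. The FDR and the counting interval changed no call of the 10 genes.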
